A study of Mus musculus with 37 samples.

Results

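Pnpla3 and 8 other lipid droplet genes were followed in the RNA of cortical astrocytes of mice that did or did not develop epilepsy after a brain injury. The 9 genes are Pnpla3, Pnpla2, Lipe, Mgll, Abhd5, Plin2, Plin3, Dgat1 and Dgat2, and they were taken from the tables of both hemispheres by the Ensembl identifier of each symbol. All 9 were found among 21975 genes. Pnpla3 was chosen by its measured level in the contralateral cortex of mice with epilepsy against mice without it, so those levels are given as a description with no test, and nothing is drawn from them. Its differences between groups in the other hemisphere are also given with no test, because most of those libraries are from the same mice. The other 8 were added around it with earlier results of these data known.

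Lipid droplets are stores of triglyceride and sterol ester wrapped in a single layer of phospholipid and coated with perilipins. Triglyceride is made by the diacylglycerol acyltransferases Dgat1 and Dgat2 and taken apart in steps by the lipases Pnpla2 and Lipe and the monoacylglycerol lipase Mgll, with Abhd5 as the activator of Pnpla2. In the brain, astrocytes take up fatty acids from neurons and hold them in droplets, and Mgll also breaks down the endocannabinoid arachidonoylglycerol.

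RNA of astrocytes isolated from the cortex with ACSA-2 MicroBeads was sequenced from 20 mice, giving 37 libraries, 19 of the ipsilateral (injured) and 18 of the contralateral hemisphere, all at 4 months after surgery. Controlled cortical impact (CCI), an impact of a flat tip at the craniectomy, was given to 15 of the mice, which were sorted by EEG into those with post-traumatic epilepsy (PTE+) and those without seizures (PTE-), and the 5 sham mice had the craniectomy without the impact. The ipsilateral libraries came from 5 sham, 10 PTE- and 4 PTE+ mice, and the contralateral libraries from 5 sham, 9 PTE- and 4 PTE+ mice. Each library of a group is a separate mouse, and 17 mice gave both hemispheres (5 sham, 9 PTE- and 3 PTE+). All mice were wild type males, named CD31 in the sample labels and CD1 in the methods, their age is not stated, and all of them, sham included, carried recording electrodes over the last months before the tissue was taken. Mice are named here as in the labels (8_10, 9_17), and the meaning of the leading 8 or 9 is not stated. Levels are in TPM, transcript abundances scaled for transcript length and library, which can be compared between genes, while the sequencing depth behind each TPM is not given and no interval for counting error can be stated.

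The ipsilateral library of PTE- mouse 9_14 stood apart. It held 10727 genes above 0 TPM against 15599 to 18534 in the others, and its median Spearman correlation with the libraries of its hemisphere was 0.748 against at least 0.906 for the others. Of 8248 genes above 5 TPM in every other ipsilateral library, 855 were listed at 0 in it, and Pnpla3 was listed at 0 in it as well. Where leaving this library out made or ended the call of a pathway gene in ipsilateral injured mice against sham, the value without it is given. For cell type markers only the change of call is named. The astrocyte markers were the strongest of the cell type markers in every group, with mean sums over 10 genes of 16309.6 to 18114.0 TPM and Aldoc as the most abundant. Markers of fat cells were close to 0, with mean sums over 6 genes of 0.418 to 1.52 TPM, Cidec as the most abundant, and Adipoq and Lep at 0 in every sham library of both hemispheres. In bulk RNA, a lower share of a cell type and less RNA per cell cannot be told apart.

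The 9 genes spanned a wide range of levels. The lipases of the breakdown chain were led by Mgll (ENSMUSG00000033174, GRCm38 chr6:88724412-88828360, plus strand), with a median of 1005.0 TPM over the 37 libraries, above 99.6% of all genes. Pnpla2, the lipase that acts first on triglyceride (ENSMUSG00000025509, chr7:141455198-141460743, plus strand), had a median of 134.5 TPM. Hormone-sensitive lipase, Lipe (ENSMUSG00000003123, chr7:25379527-25398710, minus strand), had a median of 14.9 TPM. Abhd5 (ENSMUSG00000032540, chr9:122351608-122381524, plus strand) lay between these lipases at 29.5 TPM. The droplet coat proteins Plin3 (ENSMUSG00000024197, chr17:56277476-56292873, minus strand) and Plin2 (ENSMUSG00000028494, chr4:86648386-86670060, minus strand) had medians of 81.9 and 69.8 TPM. Of the enzymes that make triglyceride, Dgat1 (ENSMUSG00000022555, chr15:76502015-76511953, minus strand) had a median of 68.9 TPM and Dgat2 (ENSMUSG00000030747, chr7:99153658-99182719, minus strand) of 10.1 TPM. Pnpla3, an acylhydrolase and transacylase of the droplet surface known for a human variant linked to fatty liver (ENSMUSG00000041653, chr15:84167837-84187236, plus strand), was the lowest of the 9 with 4.58 TPM, above 53.3% of all genes. The libraries were not strand-specific, and Pnpla3 overlaps Mir6392, Gm49513 and, on the opposite strand, Gm20369, whose reads cannot be told apart from its own where they share bases. Abhd5 and Lipe also overlap a gene on the opposite strand, and Mgll overlaps genes on both strands, with the same limit. In the order of the 9 genes the ranges over all libraries of Plin3 (60.9 to 121), Plin2 (50.5 to 112) and Dgat1 (49.2 to 103) overlapped over most of their length, and those of Lipe (7.97 to 30.0) and Dgat2 (4.64 to 25.1) overlapped as well.

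**Figure D1:**
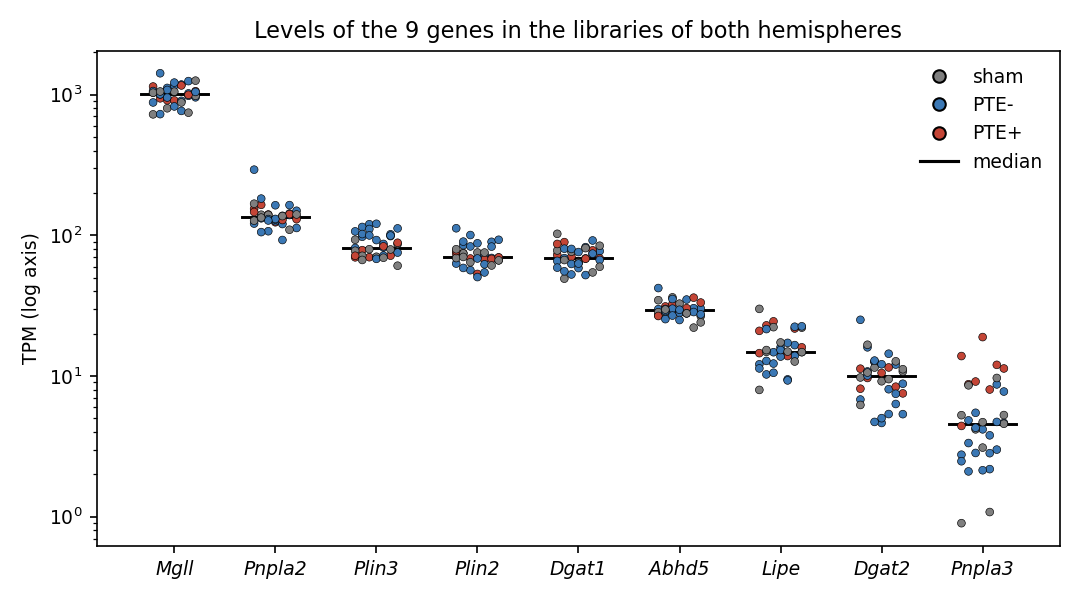
TPM on a log axis of the 9 genes in all 37 libraries, 1 point per library, ordered by level. Mgll lies around 1005.0 TPM and Pnpla3 around 4.58 TPM, and the ipsilateral PTE- library 9_14, where Pnpla3 is 0, cannot be drawn for Pnpla3 on a log axis.

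The promoters of Pnpla3 and Plin3 are shown because Pnpla3 is the gene the others were set around and Plin3 is the member with a call in a tested comparison. They are from RefSeq on GRCm38.p6, 250 bases before to 50 bases after the annotated start, 5′ to 3′ on the strand of the gene, at chr15:84167566-84167865 (plus strand) and chr17:56290462-56290761 (minus strand, inside the GENCODE span of the gene). Capitals mark the GC box (GGGCGG, or CCGCCC on the other strand) and the CCAAT box (CCAAT, or ATTGG on the other strand).
Pnpla3: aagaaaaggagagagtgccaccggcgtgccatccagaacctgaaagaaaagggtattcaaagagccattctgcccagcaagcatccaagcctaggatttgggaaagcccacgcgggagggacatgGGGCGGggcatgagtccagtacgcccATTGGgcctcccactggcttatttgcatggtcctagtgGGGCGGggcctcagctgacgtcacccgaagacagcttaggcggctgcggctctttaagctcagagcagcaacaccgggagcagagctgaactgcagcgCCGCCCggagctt
Plin3: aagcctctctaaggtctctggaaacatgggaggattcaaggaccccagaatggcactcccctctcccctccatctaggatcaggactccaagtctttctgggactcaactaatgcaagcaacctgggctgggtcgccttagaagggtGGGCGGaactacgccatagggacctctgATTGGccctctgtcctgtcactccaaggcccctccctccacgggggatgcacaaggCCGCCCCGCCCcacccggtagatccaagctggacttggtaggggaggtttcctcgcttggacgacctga

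Each of the 2 windows held 3 GC boxes and 1 CCAAT box, at -99 from the start in Pnpla3 and -75 in Plin3, and in Plin3 a pair of the GC boxes overlap by 1 base. Windows were found for 7 of the 9 members, without Dgat1 and Dgat2. The sterol regulatory element TCACCCCAC was in none of the 7 members' windows on either strand, and the E-box CACGTG was in those of Lipe, Mgll and Plin2. Of 32851 promoters of the same length, 35.7% held the GC box, 37.4% the CCAAT box, 7.15% the E-box and 0.551% the sterol regulatory element. The GC box and the CCAAT box were added to the search after the data had been seen. A match says only that the letters are in the window.

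In the contralateral cortex, the values that chose Pnpla3 were high in all 4 PTE+ mice. They were 13.9 TPM in 8_10, 8.75 in 8_17, 9.14 in 9_17 and 18.9 in 9_18. In the 9 PTE- mice Pnpla3 ran from 2.18 (8_11) through a median of 3.79 to 8.72 TPM (9_20). In sham it was 4.58 (8_15), 0.90 (8_16), 4.70 (9_9), 8.59 (9_10) and 4.18 TPM (9_11). Every PTE+ value lay above every PTE- and every sham value, the nearest being 8.75 in PTE+ against 8.72 in PTE- mouse 9_20, whose own group was otherwise at or below 4.84. The group means were 12.7 ± 4.77 TPM (SD, n = 4) in PTE+, 4.11 ± 1.96 (n = 9) in PTE- and 4.59 ± 2.73 (n = 5) in sham. As a description, PTE+ exceeded PTE- by 1.43 on the log2 scale of TPM + 1 and was 2.64 times sham on the scale of TPM + 1, while PTE- and sham differed by -0.04 on the log2 scale, with 0.32 within mice named with 8 and -0.23 within those named with 9. The ratio of mean TPM, an added measure that the 1 TPM offset does not pull toward 0, was 1.63 on the log2 scale for PTE+ against PTE-. Within mice named with 8 the difference was 1.57 (2 against 4 mice) and within those named with 9 it was 1.35 (2 against 5 mice).

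**Figure D2:**
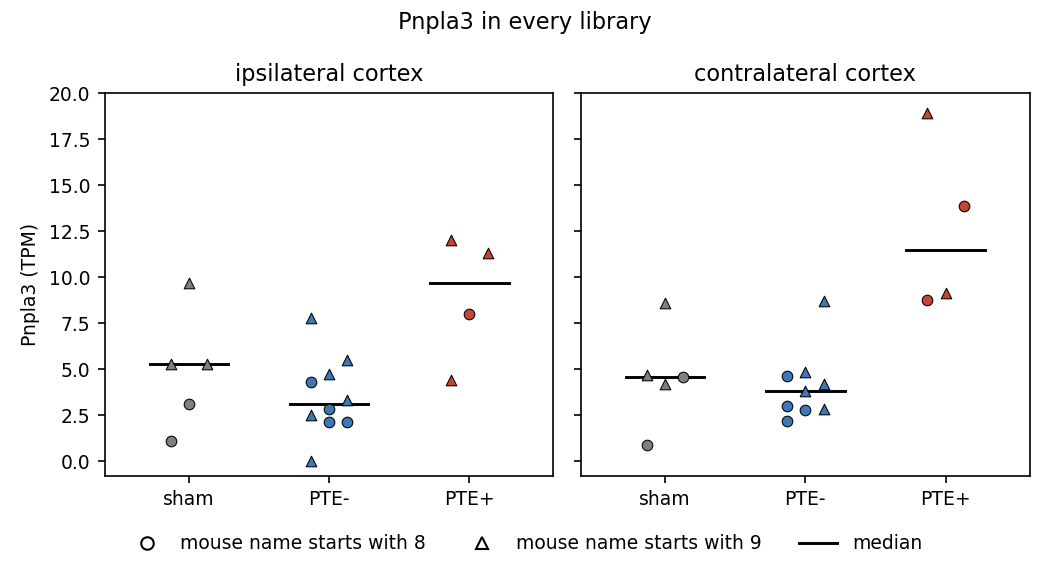
Pnpla3 in TPM in each library by hemisphere and group, with the median as a line and mouse names beginning with 8 or 9 as different marks. The contralateral PTE+ values run from 8.75 to 18.9 TPM and the ipsilateral ones from 4.42 to 12.01 TPM.

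The ipsilateral libraries were not used in the choice of Pnpla3, although 3 of the 4 PTE+ mice and all 9 contralateral PTE- mice are the same animals. There Pnpla3 was 8.02 TPM in PTE+ mouse 8_10, 12.01 in 9_17, 11.3 in 9_18 and 4.42 in 9_19. In the 10 PTE- mice it ran from 0 (9_14) through a median of 3.085 to 7.76 TPM (9_13). Sham values were 3.10 (8_15), 1.08 (8_16), 5.27 (9_9), 9.69 (9_10) and 5.28 TPM (9_11). Of the 4 PTE+ values 3 lay above all PTE- values and 2 above all sham values, and the value of 9_19, the only PTE+ mouse whose contralateral library had no part in the choice, lay inside both ranges. The group means were 8.94 ± 3.48 TPM (SD, n = 4) in PTE+, 3.51 ± 2.15 (n = 10) in PTE- and 4.88 ± 3.20 (n = 5) in sham.

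In the comparison of ipsilateral PTE+ with PTE-, which asks what goes with epilepsy among injured mice, Pnpla3 is described and not tested. It was higher in PTE+ by 1.25 log2 units, with all 4 PTE+ mice above the PTE- median. Genes were tested when their mean was above 5 TPM in at least 1 group, and Pnpla3 met this through PTE+ alone, so it had to differ to be tested, and 3 of the 4 PTE+ mice are those whose contralateral levels chose it. The difference was 1.02 without library 9_14, 1.72 with an offset of 0.1 TPM in place of 1, 1.09 without PTE+ mouse 9_17 and 1.12 without 9_18, and it was 1.27 within mice named with 8 (1 against 4) and 1.21 within those named with 9 (3 against 6). A call throughout is an unadjusted limma p under 0.05 with a fold of at least 1.2. Of all 10473 genes tested, 60 passed it (0.573%), and at an adjusted p under 0.05 limma called 0 of the genes (0%), with 63 at an unadjusted p under 0.05.

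The other 8 members did not pass in that comparison. Plin3 came nearest. In PTE+ it was 83.5 TPM (8_10), 71.7 (9_17), 88.6 (9_18) and 71.6 (9_19), and in PTE- it ran from 68.1 through a median of 101 to 114.7 TPM. All 4 PTE+ values lay below the PTE- median, yet inside the PTE- range. The difference was -0.29 (SE 0.14), with a two-sided exact permutation p of 0.0699 over 4 against 10 mice. It passed the call under quantile normalization (-0.32), median centring (-0.37), array weights (-0.27), with the leading digit of the mouse name as a covariate (-0.31) and without 9_18 (-0.35). Within mice named with 8 the Plin3 difference was -0.09 (1 against 4), and within those named with 9 it was -0.40 (3 against 6). The differences of the remaining 7 ran from -0.22 for Plin2 to 0.31 for Lipe.

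Against sham, the ipsilateral PTE+ libraries gave no call among the 8 members other than Pnpla3. The call passed 163 of 10447 genes (1.56%), and at an adjusted p under 0.05 limma called 0 (0%), with 163 genes at an unadjusted p under 0.05. Pnpla3, which passed the filter through PTE+ alone here as well and was not tested, differed by 0.87, with 3 of 4 PTE+ mice above the sham median, and by 1.63 within mice named with 8 (1 against 2) and 0.35 within those named with 9 (3 against 3). The other members lay between -0.04 (Dgat2) and 0.19 (Abhd5).

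**Figure D3:**
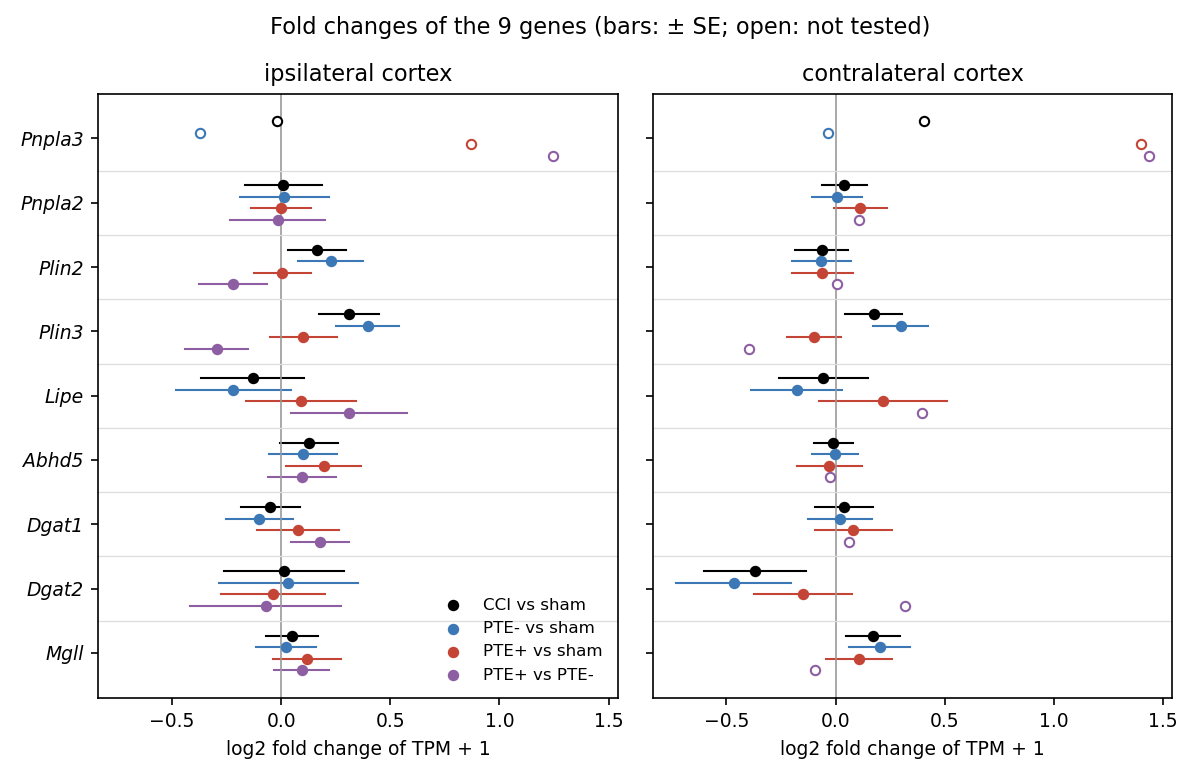
Differences of group means of log2(TPM + 1) for the 9 members, ipsilateral and contralateral in separate panels, with bars of 1 limma standard error and open marks where no test was made. Pnpla3 in PTE+ against PTE- lies at 1.25 ipsilateral and 1.43 contralateral, and Plin3 at -0.29 and -0.40.

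Plin3, a coat protein that also travels between cytosol and new droplets, was higher in injured mice without epilepsy than in sham mice in both hemispheres. Ipsilateral sham values were 69.3 TPM (8_15), 79.4 (8_16), 66.9 (9_9), 60.9 (9_10) and 93.1 (9_11), and 7 of the 10 PTE- values lay above all of them. Contralateral sham values were 86.8 (8_15), 77.7 (8_16), 70.45 (9_9), 71.55 (9_10) and 79.7 TPM (9_11), and PTE- ran from 75.4 through 97.75 to 121 TPM, with 6 of 9 above all sham values. The ranges of the groups overlapped in both hemispheres. All sham mice and all contralateral PTE- mice also gave ipsilateral libraries, so the results of the hemispheres are not independent of each other.

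In the ipsilateral cortex Plin3 rose by 0.40 (SE 0.14) in PTE- against sham, with 9 of 10 mice above the sham median, an adjusted limma p of 0.999 and a two-sided exact permutation p of 0.02. It was the single member called of 8 tested, where 161 of 10485 genes passed (1.54%) and limma called 0 at an adjusted p under 0.05 (0%), with 173 at an unadjusted p under 0.05. Pnpla3 was below the filter there and differed by -0.37, and by -0.15 without library 9_14, with 0.36 within mice named with 8 (4 against 2) and -0.86 within those named with 9 (6 against 3). Plin2, the coat protein that follows the amount of stored lipid, had 7 of 10 PTE- mice above all sham mice and differed by 0.23 (SE 0.15), with an exact permutation p of 0.131. The median over the 8 members tested was 0.03 against -0.04 over all genes tested.

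In the contralateral cortex Plin3 rose by 0.30 (SE 0.12) in PTE- against sham, with 8 of 9 mice above the sham median, an adjusted limma p of 0.9615 and a two-sided exact permutation p of 0.021. It was the single member called of 8 tested, where 397 of 10564 genes passed (3.76%) and limma called 0 at an adjusted p under 0.05 (0%), with 414 at an unadjusted p under 0.05. The difference was 0.03 within mice named with 8 (4 against 2) and 0.50 within those named with 9 (5 against 3), and the call was lost without sham mouse 9_9 (0.27) or 9_10 (0.27). Ipsilateral values within the 2 sets of names were 0.26 and 0.49. Dgat2 had the largest difference in size, -0.47 (SE 0.26), with 6 of 9 PTE- mice below all sham mice and an exact permutation p of 0.117. Mgll differed by 0.20 and passed the call under median centring (0.32), and Lipe differed by -0.18 and passed without sham mouse 8_16 (-0.41).

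PTE- and PTE+ were each set against the same sham libraries, so their differences from sham share those values. Side by side, Plin3 differed from sham by 0.40 in PTE- and 0.10 in PTE+ on the ipsilateral side, and by 0.30 and -0.10 on the contralateral side. The contralateral PTE+ values of Plin3 were 69.8 TPM (8_10), 78.5 (8_17), 69.9 (9_17) and 69.5 (9_18), of which 3 lay below all PTE- and all sham values. That PTE+ against PTE- difference was -0.40 and stands as a description, since it comes from the contrast that chose Pnpla3.

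In the same contrast Lipe was higher and Plin3 lower past both thresholds, beside 291 of 10423 genes (2.79%) and 0 at an adjusted p under 0.05 in limma (0%), with 303 at an unadjusted p under 0.05, and nothing is read from that count. Lipe was 14.55 to 24.5 TPM in PTE+ and 9.47 to 17.2 in PTE-, a difference of 0.39, with 2 of 4 PTE+ mice above all PTE- mice, and it was no longer past the thresholds without PTE+ mouse 8_17 (0.30) or 9_17 (0.27). Against sham, 210 of 10640 genes passed in contralateral PTE+ (1.97%) with limma calling 0 at an adjusted p under 0.05 (0%) and 211 at an unadjusted p under 0.05. None of the 8 members other than Pnpla3 passed there, with differences from -0.15 (Dgat2) to 0.22 (Lipe).

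With PTE+ and PTE- pooled as injured mice, which asks what goes with the injury itself, the ipsilateral call again fell on Plin3 alone of the 8 members other than Pnpla3. It rose by 0.31 (SE 0.14), with 13 of 14 injured mice above the sham median, an adjusted limma p of 0.9997 and a two-sided exact permutation p of 0.0363, and the call was lost under quantile normalization (0.27), median centring (0.28) and without sham mouse 8_15 (0.29), 9_9 (0.28) or 9_10 (0.25). The call passed 169 of 10434 genes (1.62%), and limma called 0 at an adjusted p under 0.05 (0%), with 195 at an unadjusted p under 0.05. Pnpla3, untested, differed by -0.02, its 14 injured values running from 0 to 12.01 TPM around a median of 4.355, and by 0.61 within mice named with 8 (5 against 2) and -0.46 within those named with 9 (9 against 3). It took the other sign in 6 of 20 alternatives, with a highest value of 0.31. Among them were leaving out library 9_14 (0.16) or sham mouse 9_9 (0.05), 9_10 (0.25) or 9_11 (0.05). The contralateral pooled comparison gave 0 calls among the 8 members other than Pnpla3, where 428 of 10556 genes passed (4.05%) and limma called 0 at an adjusted p under 0.05 (0%), with 472 at an unadjusted p under 0.05. Plin3 differed there by 0.18 (exact permutation p 0.192, 13 against 5 mice), Dgat2 by -0.37 and Mgll by 0.17, and Pnpla3, untested, by 0.41.

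Within a mouse, the ipsilateral library was compared with the contralateral library, 12 pairs in injured and 5 pairs in sham mice. None of the 8 members other than Pnpla3 was called in injured mice, where 467 of 10350 genes were (4.51%), and 22 (0.213%) had an adjusted p under 0.05. In sham 0 of 8 members tested were called, where 732 of 10601 genes were (6.91%) and limma called 0 at an adjusted p under 0.05 (0%), and 5 pairs cannot give a two-sided exact p below 0.0625. The difference between hemispheres was itself compared between injured and sham mice, with 653 of 10395 genes called (6.28%), 0 of them at an adjusted p under 0.05 in limma (0%), and 0 of the 8 members. Plin2 was higher on the ipsilateral side in 7 of 12 injured mice, by 0.21 on average (SE 0.08), with a two-sided exact sign-flip p of 0.0288, and its fold of 1.16 was under 1.2. The 7 pairs were spread widely, up to 90.3 against 50.5 TPM in PTE- mouse 9_15. Medians over the 8 members were 0.00 in injured mice, 0.02 in sham and 0.04 for the difference between them, against -0.01, -0.09 and 0.08 over all genes tested.

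Pnpla3 had no fixed side. It was higher on the ipsilateral side in 4 of 5 sham mice, 3 of 9 PTE- mice and 1 of 3 PTE+ mice. In the PTE+ mice it was 8.02 TPM ipsilateral and 13.9 contralateral in 8_10, 12.01 and 9.14 in 9_17, and 11.3 and 18.9 in 9_18. The mean difference in sham was 0.05, below the filter, with an exact sign-flip p of 0.812 over 5 mice. Pnpla3 in the injured pairs was not tested, since their contralateral values chose it.

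**Figure D4:**
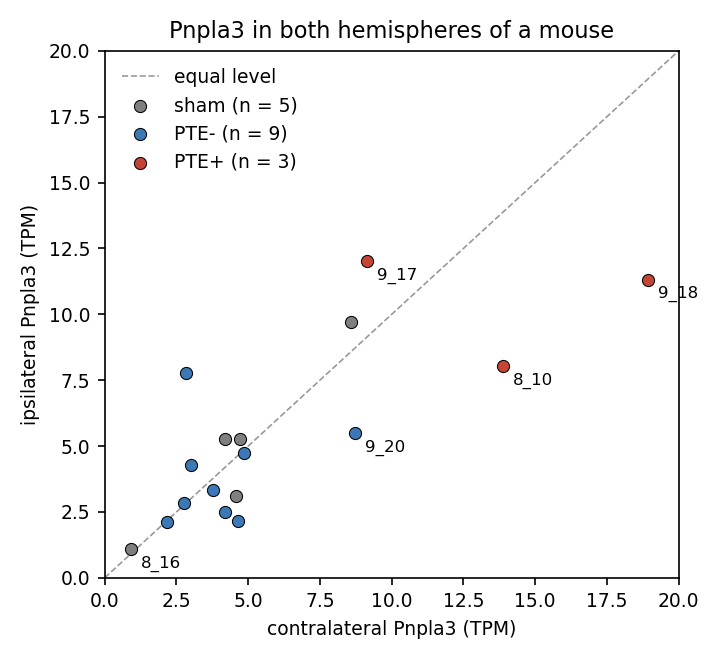
Pnpla3 in TPM in the contralateral (x) and ipsilateral (y) library of each of the 17 mice with both, with a dashed line of equal values. The 3 PTE+ mice lie at 9.14 to 18.9 TPM on the x axis and 8.02 to 12.01 TPM on the y axis, and sham mouse 8_16 is lowest on both at 0.90 and 1.08 TPM.

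The Pnpla3 levels of the 2 hemispheres of a mouse are set side by side as a description, with no test, since the contralateral levels chose the gene. After group means were removed, Pearson's r over 17 mice was 0.619 and Spearman's rho 0.456. Without the 2 mice farthest from the median, 8_16 and 9_20, r was 0.344 over 15 mice. It was 0.619 over the 7 mice named with 8 and 0.214 over the 10 named with 9. Without the 2 farthest mice of each set, r was -0.103 over 5 mice and -0.271 over 8 mice in turn. The median r of 10065 genes was 0.488, with the 5th to 95th percentile at -0.027 to 0.785. Among the other members r ran from 0.0814 for Dgat2 to 0.768 for Mgll and 0.772 for Abhd5, given as a description.

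Abhd5, Plin3 and Mgll were higher on the ipsilateral side in all 3 PTE+ mice. For Abhd5 this was by 0.16 in 8_10, 0.15 in 9_17 and 0.23 in 9_18, and it was higher there in 2 of 9 PTE- mice and 1 of 5 sham mice. The 3 PTE+ differences lay above all 9 PTE- differences, which ran from -0.26 to 0.04. No other member had a PTE+ difference above all PTE- differences. The share of all genes with such a separation, or with the same sign in all 3 PTE+ mice, is not given, so nothing is drawn from either. Levels moved little, 30.4 TPM ipsilateral against 27.0 contralateral in 8_10 for example. A test of this difference was computed and then set aside, because its contralateral part is the contrast that chose Pnpla3, and Abhd5 was singled out after its values were seen.

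The genes most like Pnpla3 were sought over 10064 genes by the smaller of 2 correlations, across 19 ipsilateral and across 18 contralateral libraries after group means were removed. The highest were Dcaf12 (0.76), Pknox1 (0.73), Echdc1 (0.73), Dhx32 (0.71) and Rragc (0.70). Without library 9_14, an alternative added once the values were known, the highest were Klhl13 (0.67), Hmgcs1 (0.67), Me1 (0.66), Mxi1 (0.65) and Cat (0.63), and 0 of the first 5 were among them. The libraries share mice between hemispheres, and the values describe these libraries only.

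Around the 9 members stood 93 further genes of droplet coat and assembly (19), glycerolipid and sterol ester synthesis (21), other lipases and hydrolases (17), the SREBP-1c, ChREBP and LXR axis with fatty acid synthesis (24), and fatty acid uptake and binding (12). In ipsilateral injured mice against sham 2 of the 75 tested rose and 1 fell, where 169 of 10434 genes were called (1.62%). Dbi, a protein that binds acyl-CoA, rose, and G0s2, an inhibitor of the lipase Pnpla2, fell. Lpin2, a phosphatidate phosphatase on the path to triglyceride, rose by 0.40 (SE 0.19), with all 14 injured mice above the sham median and an exact permutation p of 0.0351, and this call was lost on leaving out PTE+ mouse 9_17, 9_18 or 9_19 or sham mouse 8_15, 8_16, 9_9 or 9_10 (0.40, 0.40, 0.37, 0.39, 0.25, 0.38 and 0.40 in turn). Without PTE- library 9_14, 399 of 10424 genes passed there and 416 of 10449 in PTE- alone. In both, 3 more pathway genes passed. They were Cidea (0.32 in injured mice with the library, 0.58 without), the coat protein Plin5 (0.66 and 0.90) and, lower, the ChREBP gene Mlxipl (-0.73 and -0.55). The lists of other lipases and of the SREBP-1c axis gave 0 calls in injured mice with all libraries, of 13 and 23 genes tested, where limma had 195 genes at an unadjusted p under 0.05. The median over the 75 genes was -0.01, the same as over all genes tested at this rounding.

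G0s2 (ENSMUSG00000009633, GRCm38 chr1:193272161-193273217, minus strand) was 113 TPM in ipsilateral sham mouse 8_15, 165.7 in 8_16, 177.7 in 9_9, 74.8 in 9_10 and 136.7 in 9_11. In PTE+ it was 73.55 (8_10), 83.1 (9_17), 75.3 (9_18) and 71.8 TPM (9_19), and in PTE- it ran from 61.1 through 81.4 to 173.9 TPM (9_16). Sham mouse 9_10 lay among the injured mice and PTE- mouse 9_16 among the sham mice, and the remaining values of the groups were apart. The gene overlaps Lamb3 on the opposite strand, whose reads cannot be told apart from its own where they share bases. G0s2 fell by 0.66 (SE 0.19) in injured mice, with 13 of 14 below the sham median, an adjusted limma p of 0.9997 and a two-sided exact permutation p of 0.0127. It fell by 0.62 in PTE- (exact permutation p 0.034, 10 against 5 mice), a call lost without sham mouse 9_9 (-0.50), and by 0.75 in PTE+ (exact permutation p 0.0476, 4 against 5 mice). Pnpla2, the lipase it binds, was 109.6 to 167.9 TPM in sham and 92.7 to 293.1 TPM in injured mice, a difference of 0.01 that did not pass. The 293.1 is library 9_14, without which the difference was -0.07.

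Dbi (ENSMUSG00000026385, GRCm38 chr1:120113280-120121078, minus strand) was 3099.5 TPM in ipsilateral sham mouse 8_15, 2739.4 in 8_16, 2692.3 in 9_9, 2046.1 in 9_10 and 1489.5 in 9_11. In PTE+ it was 2755.0 (8_10), 3090.6 (9_17), 3625.4 (9_18) and 2716.6 TPM (9_19), and in PTE- it ran from 2529.8 through 3334.5 to 3863.5 TPM. The sham values of 9_10 and 9_11 lay below the injured range and those of 8_15, 8_16 and 9_9 inside it. Dbi rose by 0.44 (SE 0.14) in injured mice, with 13 of 14 above the sham median, an adjusted limma p of 0.9997 and a two-sided exact permutation p of 0.011, and it was 0.28 without sham mouse 9_11, still called, 0.15 within mice named with 8 (5 against 2) and 0.64 within those named with 9 (9 against 3). In PTE- alone it rose by 0.47 (exact permutation p 0.0147, 10 against 5 mice) and by 0.31 without sham mouse 9_11, while in PTE+ it differed by 0.37 and was not called (exact permutation p 0.127, 4 against 5 mice). Without library 9_14 the differences of injured mice from sham were 0.43 for Dbi, -0.66 for G0s2 and 0.29 for Plin3, all of them called.

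**Figure D5:**
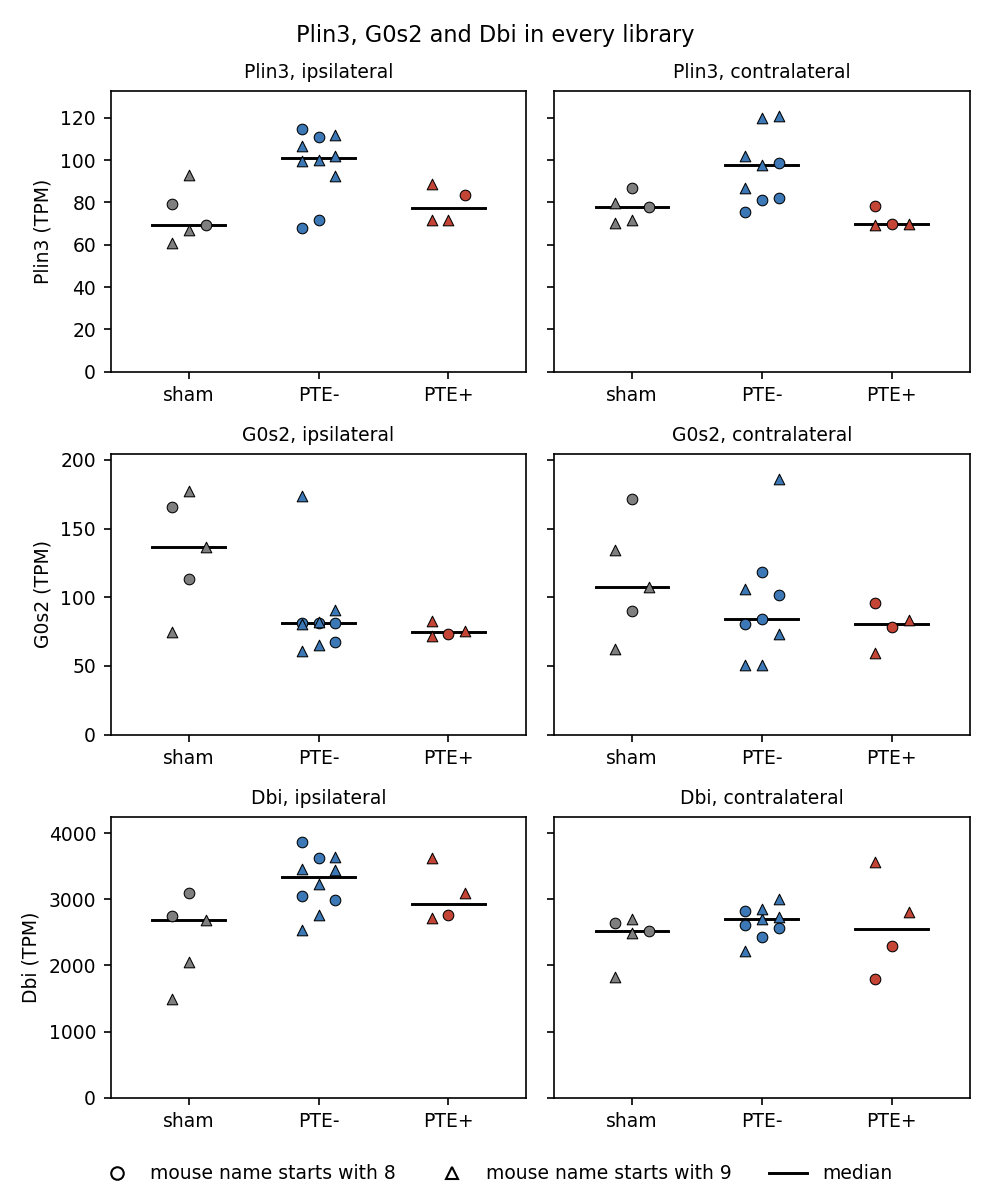
TPM of Plin3, G0s2 and Dbi in each library by group, ipsilateral and contralateral in separate panels, with 1 point per library. Ipsilateral G0s2 lies at 71.8 to 83.1 TPM in PTE+ against 74.8 to 177.7 in sham, and ipsilateral Plin3 at 68.1 to 114.7 TPM in PTE- against 60.9 to 93.1 in sham.

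Between ipsilateral PTE+ and PTE- mice 0 of 75 pathway genes passed in limma, where 63 of all genes had an unadjusted p under 0.05, and the 13 other lipases tested all had a difference above 0, with a median of 0.12 beside 0.12 over all genes tested, and 11 of them without library 9_14 (median 0.11 beside 0.08). In the contralateral comparisons with sham 0 of 75 or 76 pathway genes passed in limma (472, 414 and 211 of all genes at an unadjusted p under 0.05 for injured, PTE- and PTE+ mice). The LXR nuclear receptor Nr1h2 was 137.3 to 144.3 TPM in contralateral PTE+ against 82.1 to 135.7 in PTE-, all 4 above all 9, a difference of 0.33 given as a description. It was the single gene past the thresholds of 23 tested in its list, beside 291 of 10423 genes (2.79%). That contrast chose Pnpla3, and the share of all genes with the groups apart in this way is not given, so nothing is drawn from it. Within injured mice Cidea, a protein that enlarges droplets, rose on the ipsilateral side by 0.34 (SE 0.13), in 10 of 12 mice, with an exact sign-flip p of 0.0405, a call lost without pairing. It was the single call of 75 pathway genes, where 467 of 10350 genes were called (4.51%). Within sham mice 4 of 75 pathway genes were called, where 732 of 10601 genes were (6.91%), 691 of them lower on the ipsilateral side. The 4 were all lower there, Pnpla6 (-0.45), Elovl6 (-0.37), Tmem68 (-0.36) and Ddhd1 (-0.33), each in 4 of 5 mice, and all 4 calls were lost under quantile normalization, under median centring and without pairing. Leaving out sham mouse 8_15 ended those of Pnpla6 (-0.44), Elovl6 (-0.32), Tmem68 (-0.37) and Ddhd1 (-0.28), 8_16 the same 4 (-0.35, -0.28, -0.36 and -0.28), 9_9 those of Pnpla6 (-0.44) and Elovl6 (-0.39), 9_10 all 4 (-0.38, -0.37, -0.29 and -0.27) and 9_11 that of Tmem68 (-0.30).

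The hemisphere difference of injured mice stood above that of sham for Lpin2 by 0.46 (exact permutation p 0.00582, all 12 injured mice above the median of 5 sham), for Cidea by 0.55 (exact permutation p 0.0743), for Acbd3 by 0.32 (exact permutation p 0.0372) and for Dbi by 0.29 (exact permutation p 0.0469), and below it for G0s2 by -0.30 (exact permutation p 0.0553). These were the 5 calls among 75 pathway genes, beside 653 of 10395 genes called (6.28%), 595 of them higher. All 5 were lost without pairing, those of Cidea and Acbd3 also under both other scalings and that of Dbi under median centring. Leaving out PTE+ mouse 8_10 ended those of Cidea (0.53), Dbi (0.29) and G0s2 (-0.29), 9_17 that of Acbd3 (0.31), and 9_18 those of Cidea (0.51), Acbd3 (0.27) and G0s2 (-0.29). Among sham mice, 8_15 ended those of Cidea (0.34), Acbd3 (0.17) and G0s2 (-0.28), 9_9 those of Cidea (0.50), Acbd3 (0.33), Dbi (0.30) and G0s2 (-0.26), and 9_10 and 9_11 those of Dbi (0.23 and 0.23) and G0s2 (-0.29 and -0.27). Under the other definition of a two-sided exact p, the share of splits with a difference at least as large in size, Dbi had an exact permutation p of 0.0503. In sham the median of all genes was -0.09 on the ipsilateral side, and centring each library on its median moved it to 0.03 and the median of the hemisphere difference from 0.08 to -0.04.

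Scaling also moved the direction of calls over all genes. The share of calls that were higher was 76.3% as reported, 63.2% after quantile normalization and 65% after median centring for ipsilateral injured mice against sham, and 76.4%, 65.1% and 69% for PTE-. For ipsilateral PTE+ it was 76.1%, 54.2% and 51% against sham and 56.7%, 40.7% and 28% against PTE-. On the contralateral side it was 13.3%, 56.3% and 62.2% for injured mice, 12.8%, 62.1% and 73.4% for PTE-, 25.2%, 36% and 36.1% for PTE+, and 69.8%, 36% and 41% for PTE+ against PTE-. Within injured mice it stayed at 53.3%, 52.6% and 53.9%, within sham mice it was 5.6%, 42.7% and 59.8%, and for the hemisphere difference 91.1%, 53.6% and 34.9%. Median centring moved the median of all genes from -0.07 to 0.03 in contralateral injured mice and from -0.09 to 0.03 in contralateral PTE- mice. Relative to the median of all genes, Plin3 stood at 0.44 in ipsilateral and 0.39 in contralateral PTE- mice against sham, and Pnpla3 at 1.13 in ipsilateral PTE+ against PTE- mice.

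Markers of other cells moved in some of the same comparisons. In ipsilateral injured mice against sham the oligodendrocyte genes Mog, Mag, Opalin and Ermn fell (4 of 10 tested), with mean sums over 12 genes of 2794.4 TPM in sham, 1449.4 in PTE- and 1619.0 in PTE+ and Mbp the most abundant. The ipsilateral library 9_14 listed 9 of the 12 at 0, and without it the same 4 genes were still called and lower. The astrocyte genes Gfap and Aqp4 and the ependymal genes Foxj1 and Tmem212 rose there, with ependymal sums of 474 TPM in sham, 673 in PTE- and 472 in PTE+ and Rarres2 the most abundant. In ipsilateral PTE- mice against sham Mog, Mag, Opalin and Ermn were called and lower and Gfap, Foxj1, Tmem212 and Pifo higher, the calls of Opalin and Pifo ending without library 9_14 and those of Dynlrb2, Ccdc153, Folr1 and Slc47a1, all higher, being made, and in ipsilateral PTE+ mice against sham Aqp4 and Gfap were higher. Between ipsilateral PTE+ and PTE- the ependymal gene Pifo, lower in PTE+, was the single marker called, and without library 9_14 Pifo, Tmem212, Ccdc153 and the choroid plexus gene Folr1 were called, all lower in PTE+. With all libraries, 6 of 7 oligodendrocyte (median 0.61), 8 of 8 endothelial (0.19) and 0 of 6 ependymal markers (-0.37) lay above 0, against 0.12 over all genes. Without library 9_14 these medians were 0.20, 0.27 and -0.61, against 0.08. In the contralateral PTE+ against PTE- contrast the endothelial genes Pecam1 and Tek, the meningeal gene Slc47a1 and the neuronal gene Stmn2 were past the thresholds and higher, with endothelial sums of 1577 TPM in PTE+ and 968 in PTE- and Ly6c1 the most abundant. There 2 of 7 meningeal markers lay above 0 (median -0.29) and 9 of 9 neuronal markers (median 0.64), against 0.05 over all genes. In contralateral PTE- mice against sham Vwf and Slc47a1 were called and lower, in contralateral injured mice Slc47a1 was lower, and in contralateral PTE+ mice against sham the endothelial gene Cldn5 was higher. Within sham mice the endothelial genes Flt1, Kdr and Vwf and the mural genes Rgs5, Acta2 and Tagln were called, all lower on the ipsilateral side, and 0 of 9 endothelial markers lay above 0 there. Within injured mice Gfap, Aqp4, Sox10, Slc47a1 and Aqp1 were called and higher on the ipsilateral side, and Mbp, Mog, Mobp, Olig2, Pecam1, Flt1, Slco1a4, Ly6c1, Rgs5 and Acta2 lower, while 3 of 8 meningeal markers lay above 0 (median -0.08). For the hemisphere difference Gfap, Aqp4, Slc47a1 and Gad1 were called above sham and Olig1 and Olig2 below it. There 2 of 9 neuronal markers lay above 0 (median -0.21 against 0.08 over all genes). So did 6 of 6 ependymal markers (median 0.97) and 1 of 9 oligodendrocyte markers (median -0.59). Within injured mice 6 of 6 ependymal markers lay above 0 (median 0.43), and within sham mice 0 of 6 (median -0.58). Microglial markers are not given here. The part of any of these cells in the values of Pnpla3, Plin3, G0s2 and Dbi was not tested.

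Marker lists of 5 further cell types had 0 calls in limma in ipsilateral injured mice against sham or in ipsilateral PTE+ against PTE-, where 195 and 63 of all genes had an unadjusted p under 0.05, and without library 9_14 Slc47a1 was called and higher in injured mice, as were the ependymal genes Dynlrb2 and Ccdc153. Among these lists, all 9 neuronal markers tested were higher in ipsilateral PTE+ than in PTE- mice, with a median of 0.73 against 0.12 over all genes, and all 9 were lower in ipsilateral PTE- mice than in sham, with a median of -0.64 against -0.04. Library 9_14 listed 5 of 10 neuronal markers at 0, and without it 9 of 9 were higher in PTE+ (median 0.41 against 0.08) and 8 of 9 lower in PTE- than in sham (median -0.42 against 0.00). Over the 6 groups their mean sums were 244 to 306 TPM for oligodendrocyte precursors (Olig1 the most abundant), 1460.1 to 1881.8 for mural cells (Vtn), 2456.8 to 3583.8 for meningeal cells and fibroblasts (Ptgds), 283 to 409 for neurons (Snap25) and 13.7 to 139.9 for choroid plexus (Ttr in ipsilateral PTE- mice, where the sum in single mice reached 830.1). Ptgds and Vtn are also expressed by other brain cells.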

How the data were processed

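The authors trimmed reads with Trim Galore 0.6.4, aligned them to mm10 with Bowtie2 2.4.1 and deposited TPM estimated by RSEM 1.2.28, in a table per hemisphere. The values were compared as log2(TPM + 1), and the authors' DESeq2 1.36.0 test of read counts was not used here. Members were matched by Ensembl identifier, with symbols for 21856 of 21975 genes from GENCODE vM21. Genes whose mean exceeded 5 TPM in any group compared were fitted with limma 3.58.1 in R 4.3.3, with a variance trend and p-values adjusted over all genes tested. Exact tests took every split of the libraries, or every sign flip of the pairs (Python 3.11.15, numpy 2.4.6, scipy 1.17.1). Tables and plots used pandas 2.3.3 and matplotlib 3.10.9. The fits were checked on data simulated with independent normal noise for each gene. The simulation held no library that stood apart and no differences shared across genes, so the check does not cover these.

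The members, lists and rules were chosen with earlier results of these data known. Members are named in each comparison where called, and the other members singly or by their range in some comparisons only. Other pathway genes are named where called, at most 4 per direction by size, with the 5 genes most like Pnpla3. Spart is listed under its symbol Spg20. An exact two-sided p is 2 times the smaller one-sided p, a definition set after values by another had been seen. Of 181 exact p-values, 179 lie on the same side of 0.05 by both. The exceptions are Nr1h2 in contralateral PTE+ against sham (exact permutation p 0.0317 and 0.0556) and Dbi in the hemisphere difference (exact permutation p 0.0469 and 0.0503). Nr1h2 entered these tests through contralateral PTE+ against PTE-, which shares its PTE+ libraries, so nothing is drawn from its p-values. The log2 ratio of mean TPM was also added after seeing the data.

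Mice were paired by the mouse named in the labels. Over all genes, the 2 libraries of a mouse had a median correlation of 0.43 after group means were removed (16 of 17 above 0.1, lowest 0.0078), against -0.0907 over 98 pairs of different mice of a group. Leaving out library 9_14, other offsets, filters, scalings and weights, a covariate for the leading digit of the mouse name, a fit of all groups together, no pairing, and leaving out each replicate of the groups of up to 5 mice were tried. No library was left out of the reported values.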

Additional observations from a re-analysis of the deposited data

Results flagged for a closer look

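In 66 groups of 4 to 10 libraries over 11 genes, the highest or lowest library was looked for that lay far from the others by Dixon's ratio, which chance gives in about 1 in 20 groups. It was met in 10 groups, 2 of them through ipsilateral PTE- library 9_14. That library was highest for Pnpla2 (293.1 TPM, others 92.7 to 164.1) and for Dgat2 (25.1 TPM, others 4.72 to 14.4). Pnpla3 met the rule in contralateral PTE- mouse 9_20 (8.72 TPM, others 2.18 to 4.84). The contralateral levels chose this gene, so the chance rate does not hold for them and nothing is drawn from that flag. Plin3 stood apart in contralateral PTE+ mouse 8_17 (78.49 TPM, others 69.5 to 69.9), the PTE+ mouse with no ipsilateral library. Lipe was high in ipsilateral sham mouse 9_11 (30.02 TPM, others 12.7 to 15.3), and Dbi was low in the contralateral library of the same mouse (1821.2 TPM, others 2486.5 to 2706.8). PTE- mouse 9_16 was highest for G0s2 in both hemispheres, with 173.9 TPM ipsilateral (others 61.1 to 90.7) and 186.1 TPM contralateral (others 50.4 to 118.3), and for Abhd5 contralateral (34.97 TPM, others 28.1 to 30.4). Mgll was highest in contralateral PTE+ mouse 8_10 (1142.7 TPM, others 911.2 to 942.1).

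The difference between hemispheres differed between injured and sham mice for 5 of 75 genes tested of the pathway lists, by 0.55 for Cidea, 0.46 for Lpin2, 0.32 for Acbd3, 0.29 for Dbi and -0.30 for G0s2 on the log2 scale, none of them at an adjusted p under 0.05 in limma, beside 653 of 10395 genes called (6.28%), a similar share. All 5 calls were lost without pairing, and those of Cidea (exact permutation p 0.0743) and G0s2 (exact permutation p 0.0553) did not pass the exact test.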

How the results depend on the processing

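Pnpla3 is not counted here, since it was not tested between groups. Over 80 tested differences of the other 8 members, 1162 of 1176 alternatives stayed on the same side of the thresholds, 7 ended a call, 7 made one, and 0 reversed a called value. Of the uncalled differences 38 took the other sign at least once. The members called went from 1 to 0 in ipsilateral injured mice against sham under quantile normalization and median centring, and ran from 0 to 1 on leaving out single mice (0 without sham 8_15, 9_9 or 9_10). In ipsilateral PTE+ against PTE- they went from 0 to 1 (Plin3) under quantile normalization, median centring, array weights and the mouse name covariate, and ran from 0 to 1 on leaving out single mice (1 without PTE+ 9_18). In contralateral PTE+ against PTE-, a description, Lipe and Plin3 were past the thresholds, and with array weights or a fit of all groups 1 of them (Plin3) was, as it was without PTE+ 8_17 or 9_17 (1 to 2 on leaving out single mice). In contralateral PTE- against sham they went from 1 to 2 (Plin3 and Mgll) under median centring, and ran from 0 to 2 on leaving out single mice (2 without sham 8_16, 0 without 9_9 or 9_10). Ipsilateral PTE- against sham kept 1 in all of its alternatives. Of the other pathway genes, without pairing the differences stayed the same and the calls of Cidea, Lpin2, Acbd3, Dbi and G0s2 in the hemisphere difference, of Cidea within injured mice and of Pnpla6, Elovl6, Tmem68 and Ddhd1 within sham mice were lost. The cause was not tested.

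Calls over all genes moved more, from 169 (138 to 843) in ipsilateral injured mice against sham, 60 (23 to 441) in PTE+ against PTE- and 161 (144 to 650) in PTE- against sham, and without library 9_14 these were 399, 197 and 416. In ipsilateral PTE+ against sham they went from 163 (83 to 1221), with 1038 without sham 9_11. Contralateral calls were 428 (231 to 883) in injured mice, 397 (224 to 861) in PTE- and 210 (104 to 1114) in PTE+ against sham, and 291 (201 to 828) in PTE+ against PTE-. They were 467 (280 to 725) within injured mice, 732 (126 to 930) within sham mice and 653 (190 to 1058) for the hemisphere difference. Array weights gave the highest of each ipsilateral range. Counting error could not be separated, since TPM hold no depth, and Pnpla3 at 4.58 TPM is the member with the least signal.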
